A study of Mus musculus with 12 samples.

Results

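The genes described are 35 markers of the neuron fields of the mouse hippocampus. They comprise 13 markers of dentate granule cells, 6 of CA3 pyramidal cells, 7 of CA1 pyramidal cells and 9 that several fields or hilar cells share. The 35 were chosen by name, and a gene was taken as the probe set of that symbol with the highest mean over the 12 arrays. All 35 of 35 had a probe set, out of 19938 genes that stand alone on a probe set, and 34 had 1 probe set while Cdh24 had 2. The list was drawn up with results of these arrays known, and Neurod1 was selected on its lower level in heterozygous mice with status epilepticus (SE, a seizure state that does not end by itself). Its values in that comparison, and in any comparison that contains it, are therefore given as a description with no test, and no other marker was named for its change.

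The hippocampi of 12 mice, 3 for each of 4 groups, were profiled on 12 Affymetrix Mouse Gene ST arrays. Srf mutants given pilocarpine carried loxP sites on both Srf alleles, received the muscarinic agonist at 335 or 350 mg/kg after methyl scopolamine, and had seizures without SE. Mutant controls had the same genotype and received Ringer solution. Heterozygous mice with SE carried loxP sites on 1 Srf allele and spent 40 min in SE after the same doses, and heterozygous controls received Ringer solution. All 12 mice were of the C57/Bl6 background, were 7 to 10 weeks old, carried a tamoxifen-inducible Cre recombinase under the Camk2a promoter and had been given tamoxifen, so that Srf was removed from forebrain glutamatergic neurons and not from glia or interneurons. The heterozygous controls thus also lack 1 Srf allele in these neurons. The sample labels name the heterozygous mice as wild-type or control animals and the pilocarpine-injected mutants as animals with seizure, and the description in the methods was followed here. Levels are the authors' log2 values after robust multiarray averaging (RMA), so that a difference of 1 is a 2-fold change. They are relative to the other genes of an array, and in whole tissue fewer cells of a type and less RNA per cell cannot be told apart.

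The hippocampus passes signals from the dentate gyrus, whose granule cells send mossy fibre axons to CA3, on to the pyramidal cells of CA3 and then of CA1. Each field expresses its own transcription factors and effector genes, and these markers keep their pattern in the adult. Their levels in dissected hippocampal tissue therefore depend on how much of each field is in the sample as well as on regulation within cells. Neurod1, Neurod2 and Neurod6 encode basic helix-loop-helix transcription factors that bind E-boxes. Neurod1 is needed for the formation and survival of granule cells, while Neurod2 and Neurod6 mark differentiated glutamatergic neurons, with Neurod6 mainly in pyramidal cells.

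The results open with the 3 NeuroD genes, and the 250 bases upstream of their start sites are printed so that these windows can be compared. The sequences are from RefSeq on GRCm38.p6, all on the minus strand, and lie at chr2:79456637-79456886 for Neurod1, chr11:98329646-98329895 for Neurod2 and chr6:55681264-55681513 for Neurod6. Capitals mark the E-box CANNTG, which reads the same on both strands.
Neurod1: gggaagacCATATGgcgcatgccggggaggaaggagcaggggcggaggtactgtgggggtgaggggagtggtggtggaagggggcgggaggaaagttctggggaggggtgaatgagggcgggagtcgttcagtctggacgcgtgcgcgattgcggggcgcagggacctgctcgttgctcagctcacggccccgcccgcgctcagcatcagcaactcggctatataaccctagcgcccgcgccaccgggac
Neurod2: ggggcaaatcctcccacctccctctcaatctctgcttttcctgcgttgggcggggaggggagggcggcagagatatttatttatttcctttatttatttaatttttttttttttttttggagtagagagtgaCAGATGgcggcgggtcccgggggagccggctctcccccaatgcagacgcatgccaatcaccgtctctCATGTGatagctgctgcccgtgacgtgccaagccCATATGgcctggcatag
Neurod6: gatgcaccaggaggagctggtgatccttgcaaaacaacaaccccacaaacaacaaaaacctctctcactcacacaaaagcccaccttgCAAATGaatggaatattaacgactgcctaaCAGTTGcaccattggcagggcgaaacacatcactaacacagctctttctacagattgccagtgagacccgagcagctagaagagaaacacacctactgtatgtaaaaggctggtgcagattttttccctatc
Neurod1 held 1 E-box in this window, Neurod2 held 3 and Neurod6 held 2, and 66.2% of 32851 such windows of mouse genes held at least 1. The Neurod1 window held the letters TATATAA of a TATA box, present on either strand in 3.04% of windows, and the other two did not. The Neurod2 window held the cyclic AMP half-site TGACG outside its E-boxes, as did 17.8% of windows, and the windows of Neurod1 and Neurod6 did not. None of the 3 held the AP-1 site TGANTCA (6.75% of windows) or the CArG box that SRF binds (1.47% of windows). The share of G and C was 67.6% upstream of Neurod1, 52.8% upstream of Neurod2 and 46% upstream of Neurod6, against a median of 52.4%. These are matches of letters and not sites of binding.

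The labels were checked on Srf and Fos, and 4 arrays stood apart in their markers. Srf, the deleted gene, averaged 8.88 ± 0.04 in mutants given pilocarpine, 8.90 ± 0.09 in mutant controls, 10.21 ± 0.05 in heterozygous mice with SE and 9.57 ± 0.04 in heterozygous controls (log2 level, SD, n = 3 each). Fos, an immediate early gene of neuronal activity, was higher by 2.72 in mutants given pilocarpine than in mutant controls and by 5.34 in heterozygous mice with SE than in their controls (log2). The arrays of mutant control 2 and heterozygous SE 2 were low in decorin (Dcn), with log2 levels of 10.85 and 10.88, while the other 10 arrays lay between 11.78 and 12.31. The arrays of heterozygous SE 1 and heterozygous control 1 were the highest of the 12 for 6 of 7 thalamus genes, with Tcf7l2 at 8.72 and 8.50 against 7.65 to 8.00 on the others, and this held for 1.37% of all tested probe sets. Both pairs were found after their values were seen. Dcn and Tcf7l2, for which the pairs were picked, hold their places by that choice and are no test. Values without these arrays stand beside results that they move.

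Among the field markers, Neurod1 had the largest change in SE. Its log2 levels were 8.31, 8.04 and 7.88 in heterozygous mice with SE, against 8.81, 9.19 and 9.06 in heterozygous controls. All 3 arrays with SE lay below all 3 controls, and the difference was -0.94 (log2, standard error 0.11). Over all tested probe sets, the change of Neurod1 ranked 10 among the lowest of 23410. Neurod1 was selected on this fall, so that its size, rank and lack of overlap are a description and no test. In the mutants, which had no SE, the levels were 8.73, 8.74 and 8.51 with pilocarpine, against 8.92, 8.94 and 8.83 in mutant controls. The arrays again did not overlap, the difference was -0.24 (standard error 0.11), and it did not pass the test over all probe sets (adjusted p = 0.342 from limma). The difference between both effects was 0.70 (log2, standard error 0.16), the smaller fall being that of the mutants.

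In heterozygous mice the fall of Neurod1 was not shared by the other granule cell markers. Relative to the mean of the other 12 dentate markers, it lay at -0.49, -0.74 and -0.70 in heterozygous mice with SE, against 0.23, 0.50 and 0.38 in heterozygous controls (log2, centred on the 12 arrays). On this scale the difference was -1.01 in heterozygous mice, against -0.94 for Neurod1 alone. In the mutants the values were 0.18, 0.15 and -0.14 with pilocarpine, against 0.36, 0.11 and 0.15 in mutant controls, and the groups overlapped. Here the difference was -0.14, against -0.24 for Neurod1 alone. The fall in heterozygous mice was -0.93 without both arrays low in Dcn and -1.16 without both arrays high in thalamus genes.

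Of the other NeuroD genes, Neurod6 had a smaller difference with SE that did not pass the test, and Neurod2 overlapped between groups. The log2 levels of Neurod6 were 11.18, 11.36 and 11.31 in heterozygous mice with SE, against 11.48, 11.52 and 11.59 in heterozygous controls. The groups did not overlap, and the difference of -0.25 (standard error 0.08) missed the threshold of an adjusted p under 0.05 (adjusted p = 0.058 from limma). It passed in 9 of 23 alternatives, among them array weights (adjusted p = 0.021 from limma) and the fit without both arrays low in Dcn (adjusted p = 0.0447 from limma), and the adjusted p rose to 0.22 without both arrays high in thalamus genes. In mutants given pilocarpine Neurod6 stood at 11.48, 11.49 and 11.28, against 11.49, 11.61 and 11.34 in mutant controls, with a difference of -0.06. Neurod2 averaged 11.58 ± 0.04 in heterozygous mice with SE and 11.64 ± 0.05 in heterozygous controls (SD, n = 3 each). The 2 groups of Neurod2 overlapped, as they did in the mutants, where it averaged 11.73 ± 0.03 with pilocarpine and 11.66 ± 0.09 in mutant controls.

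**Figure D1:**
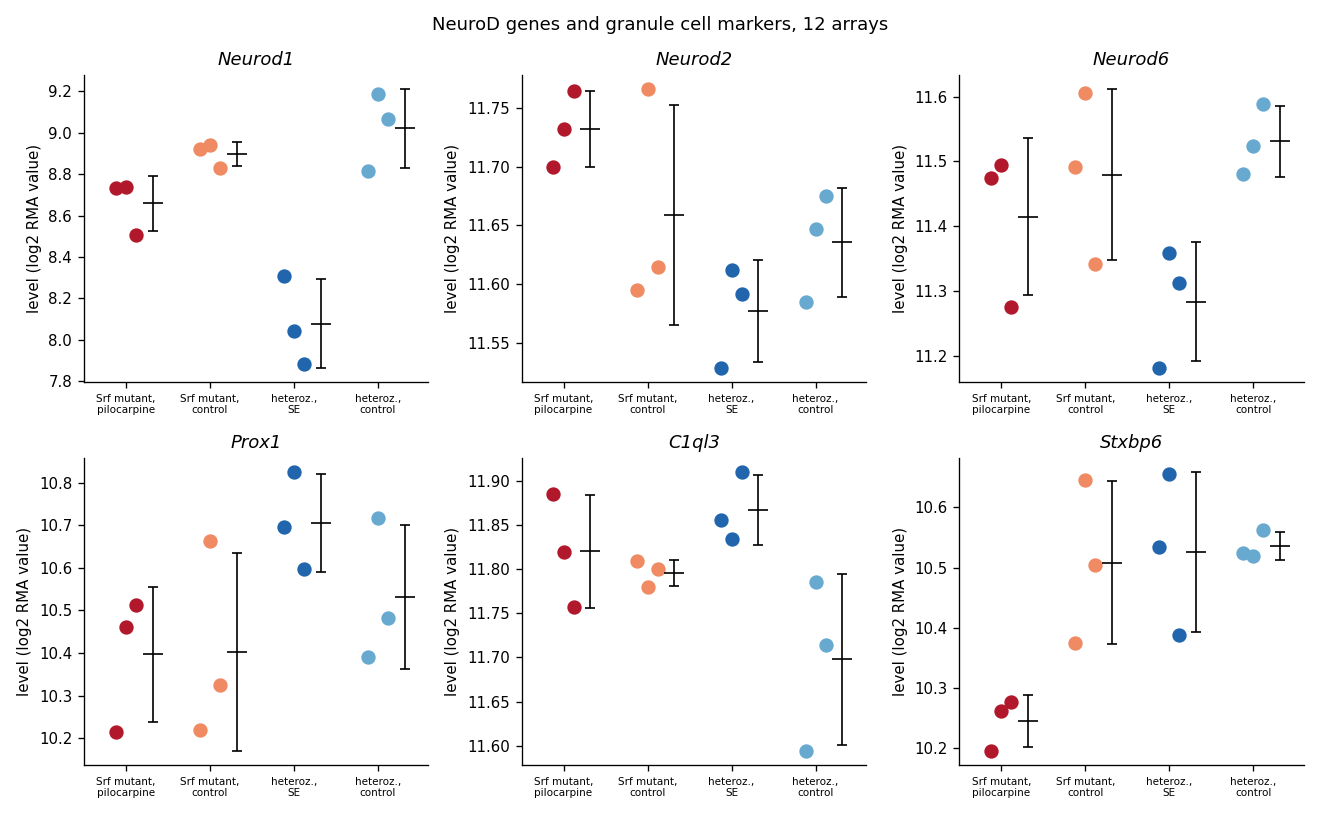
Log2 RMA levels of Neurod1, Neurod2, Neurod6, Prox1, C1ql3 and Stxbp6 by group and mouse. Each point is 1 of 12 mice, and black bars are means with SDs (n = 3 each). The 3 heterozygous mice with SE are the lowest of the 12 for Neurod1, from 7.88 to 8.31, and the 3 mutants given pilocarpine are the lowest for Stxbp6, from 10.20 to 10.28.

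A call here means an adjusted p under 0.05 (limma). With SE, 0 of the 34 markers other than Neurod1 were called, while 12% of the 23410 tested probe sets were called in either direction. Without adjustment 5 higher and 1 lower of the 34 had a p under 0.05 (limma), against 5580 of the 23410 tested probe sets. The arrays of both groups did not overlap for 5 of the 34, against 30.4% of tested probe sets. The median difference of all 35 was -0.01 and that of all tested probe sets was -0.03 (log2).

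None of the other 12 dentate markers was called in SE. Prox1, the homeobox factor that keeps granule cells in their fate, had log2 levels of 10.70, 10.83 and 10.60 in heterozygous mice with SE, against 10.39, 10.72 and 10.48 in heterozygous controls. The groups overlapped and the difference was 0.18 (standard error 0.12), with 0.12 without both arrays low in Dcn and 0.11 without both arrays high in thalamus genes. C1ql2 and C1ql3 encode secreted C1q-like proteins that mossy fibres release at their synapses with CA3, and for both genes the arrays with SE lay above the controls. C1ql3 was at 11.86, 11.83 and 11.91 with SE, against 11.59, 11.79 and 11.71 in controls, a difference of 0.17 (standard error 0.05, adjusted p = 0.0608 from limma). This passed the threshold in 6 of 23 alternatives, with adjusted p values as low as 0.0281 from limma, but the adjusted p was 0.0992 without both arrays low in Dcn and 0.305 without both arrays high in thalamus genes.

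C1ql2 stood at 10.43, 10.74 and 10.51 in heterozygous mice with SE, against 10.25, 10.42 and 10.39 in controls, a difference of 0.21 (standard error 0.08, adjusted p = 0.15 from limma). Its highest value was on an array low in Dcn, and without those 2 arrays the difference was 0.12. Dsp, which encodes the desmosomal protein desmoplakin and is rich in granule cells, was at 9.42, 9.51 and 9.27 with SE, against 8.85, 9.31 and 9.07 in controls. The groups overlapped, and the difference of 0.32 (standard error 0.15) had an adjusted p of 0.209 from limma and was 0.20 without both arrays high in thalamus genes. In the mutants Dsp was at 8.82, 9.07 and 9.12 with pilocarpine, against 8.95, 9.49 and 8.95 in controls, also with overlap. The differences of the other 8 dentate markers in SE lay between -0.15 for Tdo2 and 0.26 for Trpc6, a cation channel gene, and for all 8 the groups overlapped. Among them Lef1, a transcription factor of Wnt signalling, differed by -0.10, and Tdo2 by -0.32 once both arrays high in thalamus genes were left out.

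In mutants given pilocarpine 9 of the 12 dentate markers other than Neurod1 had a mean below that of mutant controls, with a median difference over the 12 of -0.09, against -0.00 for all tested probe sets. This rested on the arrays low in Dcn, since without both of them 6 of 12 lay below and 6 above. None of the 35 markers was called (limma), and 3 had an unadjusted p under 0.05 (1 higher, 2 lower). Of the 23410 tested probe sets 1.84% were called and 3470 had an unadjusted p under 0.05. The arrays did not overlap for 3 of 35 markers, namely Neurod1, Stxbp6 and Nnat, against 18.4% of tested probe sets. Stxbp6 encodes amisyn, a protein that binds the SNARE fusion machinery. Its log2 levels were 10.20, 10.26 and 10.28 with pilocarpine, against 10.38, 10.65 and 10.50 in mutant controls, and all 6 heterozygous arrays lay above the pilocarpine-treated mutants, between 10.39 and 10.66. The difference to mutant controls was -0.26 (standard error 0.07, adjusted p = 0.0942 from limma) and it passed the threshold in 0 of 23 alternatives. Without both arrays low in Dcn, 1 of which held the highest value among the mutants, it was -0.20 (adjusted p = 0.18 from limma).

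Lct, the gene of lactase, and Tdo2, which encodes the tryptophan dioxygenase of mature granule cells, had the largest differences in this field, and both were uneven between mice. Lct was at 8.99, 9.04 and 9.30 with pilocarpine, against 8.99, 9.71 and 9.50 in mutant controls, a difference of -0.29 (standard error 0.16). The 6 heterozygous arrays lay between 9.48 and 9.87 for Lct, above all 3 mutants given pilocarpine. Tdo2 was at 7.46, 7.33 and 7.47 with pilocarpine, against 7.76, 8.25 and 7.24 in mutant controls, a difference of -0.33 (standard error 0.25). For both genes the groups overlapped, and without both arrays low in Dcn the difference was -0.14 for Lct and -0.08 for Tdo2. Calb1, the calcium buffer calbindin, differed by 0.19 and Fam163b by -0.21, with a standard error of 0.09 each and adjusted p values of 0.381 and 0.316 from limma, and Fam163b by -0.10 without these arrays. Lef1 differed by -0.17 (standard error 0.14), with overlap.

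**Figure D2:**
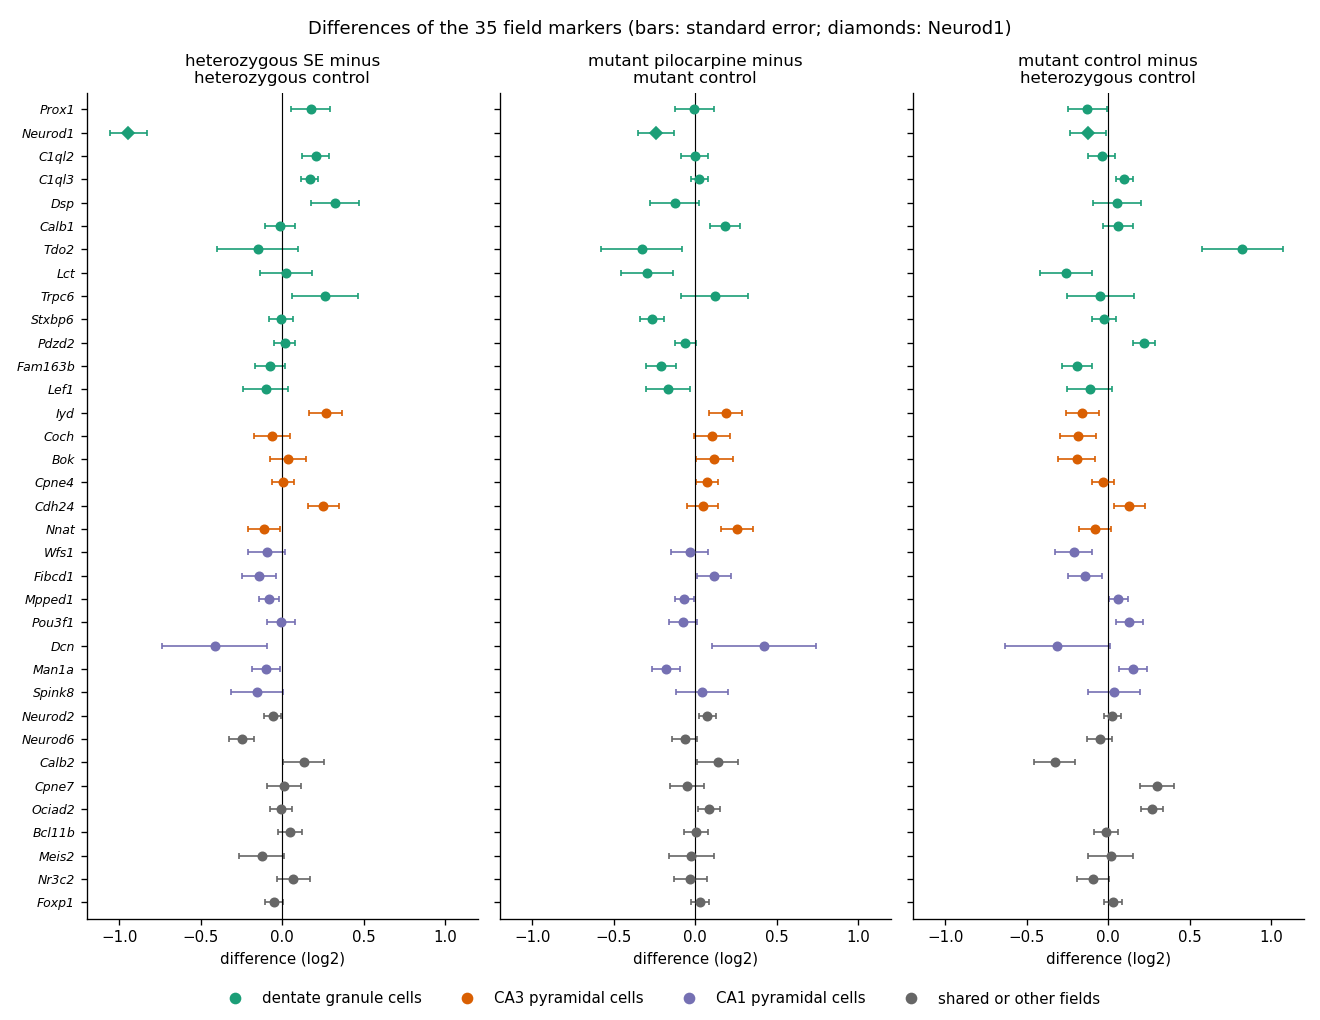
Differences of the 35 markers in log2 units with standard errors, for heterozygous SE minus heterozygous control, mutant pilocarpine minus mutant control and mutant control minus heterozygous control (left to right). Colours give the field and diamonds mark Neurod1. Neurod1 lies at -0.94 in the left panel, where the other 34 lie between -0.41 and 0.32, and Tdo2 lies at 0.82 in the right panel.

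Of the 6 CA3 markers, 0 were called in SE (limma). The groups did not overlap for 2 of 6, Iyd and Cdh24, both higher in SE, against 30.4% of tested probe sets. Iyd, the gene of iodotyrosine deiodinase, had log2 levels of 7.53, 7.33 and 7.40 in heterozygous mice with SE, against 7.03, 7.14 and 7.29 in heterozygous controls. The difference was 0.27 (standard error 0.10, adjusted p = 0.119 from limma), and it passed the threshold in 2 of 22 alternatives, without mutant control 2 (adjusted p = 0.0436 from limma) and without both arrays low in Dcn (0.31, adjusted p = 0.0412 from limma). Without both arrays high in thalamus genes it was 0.15 (adjusted p = 0.581 from limma). Cdh24, which encodes a cadherin, was at 8.15, 8.38 and 8.29 with SE, against 7.94, 7.99 and 8.13 in controls, a difference of 0.25 with a standard error of 0.10 (adjusted p = 0.119 from limma). With both probe sets of Cdh24 averaged, the difference was 0.10 (adjusted p = 0.397 from limma). In the mutants the groups of both genes overlapped, with Iyd at 7.06, 7.28 and 7.20 with pilocarpine, against 6.87, 7.23 and 6.88 in mutant controls, a difference of 0.19 with all arrays and 0.31 without both arrays low in Dcn. Cdh24 was at 8.04, 8.26 and 8.29 in mutants given pilocarpine, against 8.11, 8.35 and 8.00 in mutant controls. The other 4 CA3 markers differed by -0.11 for Nnat to 0.04 for Bok.

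In mutants given pilocarpine all 6 CA3 markers had a mean above that of mutant controls, by 0.04 to 0.25, while 0 of 6 were called (limma) and 1 had an unadjusted p under 0.05. The median difference was 0.11, against -0.00 for all tested probe sets. Nnat, which encodes the imprinted membrane protein neuronatin, had levels of 12.48, 12.56 and 12.36 with pilocarpine, against 12.36, 11.95 and 12.32 in mutant controls. The difference was 0.25 (standard error 0.10, adjusted p = 0.245 from limma), and it fell to 0.13 without both arrays low in Dcn, 1 of which was mutant control 2. The lowest value with pilocarpine and the highest control value of Nnat were equal to 2 decimals. In heterozygous mice Nnat was at 12.30, 12.03 and 12.23 with SE, against 12.28, 12.30 and 12.30 in controls. Bok, a pro-apoptotic gene of the BCL2 family, moved the other way with these arrays. It was at 10.21, 10.10 and 10.15 with pilocarpine, against 9.99, 10.35 and 9.77 in mutant controls, and its difference was 0.12 with all arrays and 0.27 without the 2 arrays (adjusted p = 0.126 from limma). Coch, the gene of the matrix protein cochlin, and Cpne4, a copine that binds membranes in the presence of calcium, overlapped between groups in every comparison. Coch was at 7.88, 8.09 and 7.77 in mutants given pilocarpine and at 7.82, 7.59 and 8.02 in mutant controls, against 8.06, 8.09 and 7.85 in heterozygous controls.

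The CA1 markers had no called change. With SE all 7 had a mean below that of heterozygous controls, by 0.01 to 0.41 on the log2 scale, with a median of -0.10. Of these, 0 of 7 were called (limma), 0 of 7 had an unadjusted p under 0.05 and 0 of 7 were free of overlap. Of the 23410 tested probe sets 12% were called, 5580 had an unadjusted p under 0.05 and 30.4% were free of overlap. Wfs1, which encodes the endoplasmic reticulum protein wolframin and marks dorsal CA1, had levels of 11.27, 11.18 and 11.41 with SE, against 11.60, 11.35 and 11.19 in controls, a difference of -0.10 (standard error 0.11). In mutant controls Wfs1 was at 11.10, 11.03 and 11.39, a difference of -0.21 to heterozygous controls (standard error 0.11), again with overlap, and -0.10 without both arrays high in thalamus genes. Dcn was at 12.02, 10.88 and 11.78 with SE, against 11.95, 11.94 and 12.04 in controls. Its difference of -0.41 (standard error 0.32) rested on 1 array, and without both arrays low in Dcn it was -0.07. In the mutants Dcn was at 12.16, 12.31 and 11.79 with pilocarpine, against 12.07, 10.85 and 12.07 in controls, and the difference was 0.42 with and 0.02 without these arrays.

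The gene of the acetyl-group receptor Fibcd1 stood at 10.42, 10.66 and 10.53 in heterozygous mice with SE, against 10.55, 10.65 and 10.84 in heterozygous controls. Spink8, a Kazal-type protease inhibitor gene, stood at 8.82, 8.78 and 8.50 with SE, against 9.01, 8.68 and 8.87 in controls. The groups of both genes overlapped, with differences of -0.14 for Fibcd1 and -0.15 for Spink8. Man1a, which encodes a mannosidase of the Golgi, was at 10.21, 10.10 and 9.93 in mutants given pilocarpine, against 10.37, 10.35 and 10.06 in mutant controls, a difference of -0.18 with overlap (standard error 0.09, adjusted p = 0.368 from limma). Mpped1, a metallophosphoesterase gene, and Pou3f1, a POU domain transcription factor, differed by at most 0.13 in any of the 3 comparisons between groups.

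Of the 9 markers shared between fields, Neurod6 alone was free of overlap in SE, against 30.4% of tested probe sets. Between mutants given pilocarpine and mutant controls 0 of 9 were free of overlap, against 18.4% of tested probe sets. Calb2 encodes calretinin, which in mice marks hilar mossy cells and some interneurons. It was at 10.37, 10.05 and 10.18 in heterozygous mice with SE, against 10.26, 10.07 and 9.86 in heterozygous controls, and at 9.97, 10.04 and 9.62 in mutants given pilocarpine, against 9.83, 9.57 and 9.80 in mutant controls. Its differences were 0.13 with SE and 0.14 in the mutants (standard error 0.13 each), both pairs of groups overlapped, and without both arrays low in Dcn the values were 0.21 with SE and 0.06 in the mutants. Bcl11b and Foxp1, transcription factors of glutamatergic neurons, and Nr3c2, the mineralocorticoid receptor, differed by less than 0.1 in SE and with pilocarpine in the mutants.

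Between mutants and heterozygous mice, Ociad2 and Pdzd2 separated all arrays. In controls alone, 0 of 35 markers were called (limma), with 4 higher and 1 lower at an unadjusted p under 0.05. Of the 23410 tested probe sets 0.12% were called and 2043 had an unadjusted p under 0.05. The arrays of mutant and heterozygous controls did not overlap for 4 of 35 markers, Tdo2, Pdzd2 and Ociad2 being higher and Calb2 lower in mutants, against 13.6% of tested probe sets. Over the 6 mutant and the 6 heterozygous arrays, 2 of 35 markers were free of overlap, against 1.28% of tested probe sets. Ociad2, which encodes an OCIA domain protein of mitochondria and endosomes, lay between 11.54 and 11.79 in mutants, with a mean of 11.65, and between 11.19 and 11.41 in heterozygous mice, with a mean of 11.34. Pdzd2, a gene of a protein with several PDZ domains, lay between 8.75 and 8.97 in mutants and between 8.54 and 8.73 in heterozygous mice.

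A comparison of genotypes averaged over both treatments was added after the values had been seen, and the heterozygous mice in it include those with SE. It called 6 of the 34 markers other than Neurod1, against 6.39% of tested probe sets. Ociad2 was higher in mutants by 0.31 (standard error 0.05, adjusted p = 0.00235 from limma), Tdo2 by 0.73 (adjusted p = 0.0286 from limma) and Pdzd2 by 0.18 (adjusted p = 0.0425 from limma). Fam163b was at -0.26 (adjusted p = 0.0337 from limma), Lct at -0.42 (adjusted p = 0.0498 from limma) and Calb2 at -0.33 (adjusted p = 0.0498 from limma). Of the 6, Ociad2 was called both without the 2 arrays high in thalamus genes (0.25, adjusted p = 0.008 from limma) and without the 2 arrays low in Dcn (0.32, adjusted p = 0.0085 from limma). Tdo2 was called without the arrays high in thalamus genes, Lct and Fam163b without the arrays low in Dcn, and Pdzd2 and Calb2 in neither. Iyd and Bok were called lower in mutants without the arrays low in Dcn, by -0.28 and -0.21.

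The arrays high in thalamus genes were both heterozygous, and several of these markers followed them. Heterozygous SE 1 and heterozygous control 1 were the 2 lowest of the 12 arrays for 5 of 35 markers, Pdzd2, Neurod2, Cpne7, Ociad2 and Foxp1, against 1.22% of tested probe sets, and the 2 highest for Calb2. For Ociad2 these arrays were at 11.19 and 11.25, while the other 4 heterozygous arrays lay between 11.37 and 11.41, still below all mutants. Cpne7, another copine, was at 11.87, 11.59 and 11.36 in mutant controls, against 11.18, 11.39 and 11.35 in heterozygous controls, and the difference of 0.30 was 0.24 without these arrays. The mean of the 7 thalamus genes lay between 7.83 and 8.01 in mutants given pilocarpine, 7.99 and 8.10 in mutant controls, 7.97 and 8.74 in heterozygous mice with SE and 8.04 and 8.50 in heterozygous controls, and 0 of 7 were called by genotype in controls (limma). The mean of 8 interneuron genes was 10.65 to 10.69 in mutants given pilocarpine and 10.58 to 10.63 in mutant controls. In heterozygous mice it was 10.49 to 10.58 with SE and 10.43 to 10.46 in controls. Between the controls 0 of 8 were called and 5 had an unadjusted p under 0.05 (limma), against 2043 of 23410 tested probe sets. The arrays did not overlap for 6 of 8, against 13.6% of tested probe sets. Genes of 1 list are not replicates, and the mean was not tested. The part of tissue content in the genotype values was not tested.

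**Figure D3:**
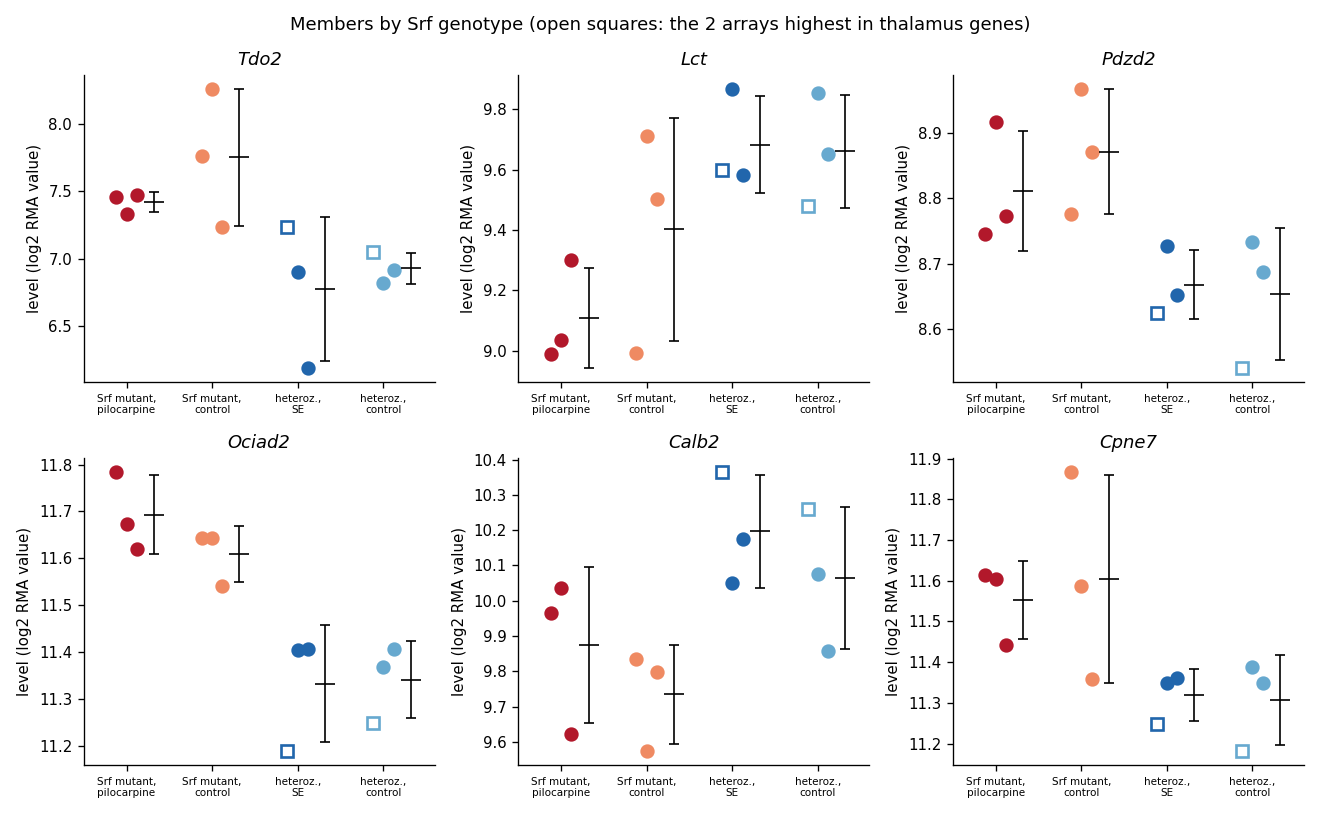
Log2 RMA levels of Tdo2, Lct, Pdzd2, Ociad2, Calb2 and Cpne7 in the 12 mice, by group. Points are mice, open squares are the 2 arrays highest in thalamus genes and black bars are means with SDs (n = 3 each). For Ociad2 the 6 mutants lie at or above 11.54 and the 6 heterozygous mice at or below 11.41.

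Tdo2 had the widest range of the 35 markers over the 12 arrays, at 2.07 (log2). In mutant controls it was at 7.76, 8.25 and 7.24, against 7.05, 6.82 and 6.92 in heterozygous controls, a difference of 0.82 (standard error 0.25, adjusted p = 0.412 from limma). In heterozygous mice with SE it was at 7.24, 6.90 and 6.19. The groups of controls did not overlap, but the highest mutant value was on an array low in Dcn, and without both such arrays the difference was 0.57.

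The 2 arrays low in Dcn were also low in genes of the ventral pole of the hippocampus. Over all tested probe sets, these 2 arrays were the 2 lowest of the 12 for 2.27%. Among the 35 markers they were so for 3, Nnat, Meis2, a homeobox gene, and Dcn, whose place was fixed by the choice of the arrays. They were the lowest for 4 of 4 genes of the ventral pole, Trhr, Grp, Nr2f2 and Htr2c, which encode the receptor of thyrotropin-releasing hormone, gastrin-releasing peptide, a nuclear receptor and a serotonin receptor. Trhr was at 6.61 in mutant control 2 and 6.83 in heterozygous SE 2, and between 7.14 and 7.71 on the other 10 arrays. For the dorsal pole, these 2 arrays were the lowest for 1 of 2 genes, Gsg1l. The mean of both dorsal genes was -0.20 in mutant control 2 and -0.16 in heterozygous SE 2 (log2, centred on the 12 arrays). Heterozygous control 2 was lower still, at -0.24. The 2 arrays low in Dcn were also the lowest for 3 of 6 genes of meninges and fibroblasts, cells that also express Dcn. The mean of these 6 genes was lowest on the same arrays, at 7.54 in mutant controls and 7.50 in heterozygous mice with SE.

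The same 2 arrays were the highest of the 12 for 5 of 35 markers, Dsp and Stxbp6 of granule cells, Bok and Cdh24 of CA3, and Bcl11b, against 1.84% of tested probe sets. Neurod1 was at 8.94 in mutant control 2, the highest of the mutants, where the other mutant controls were at 8.92 and 8.83. In heterozygous SE 2 it was at 8.04, where the other mice with SE were at 8.31 and 7.88. Its values in SE are a description and no test. The 2 arrays fall into different groups, so that they enter both pilocarpine comparisons with opposite weight. How much of their pattern is dissection and how much is regulation was not tested.

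**Figure D4:**
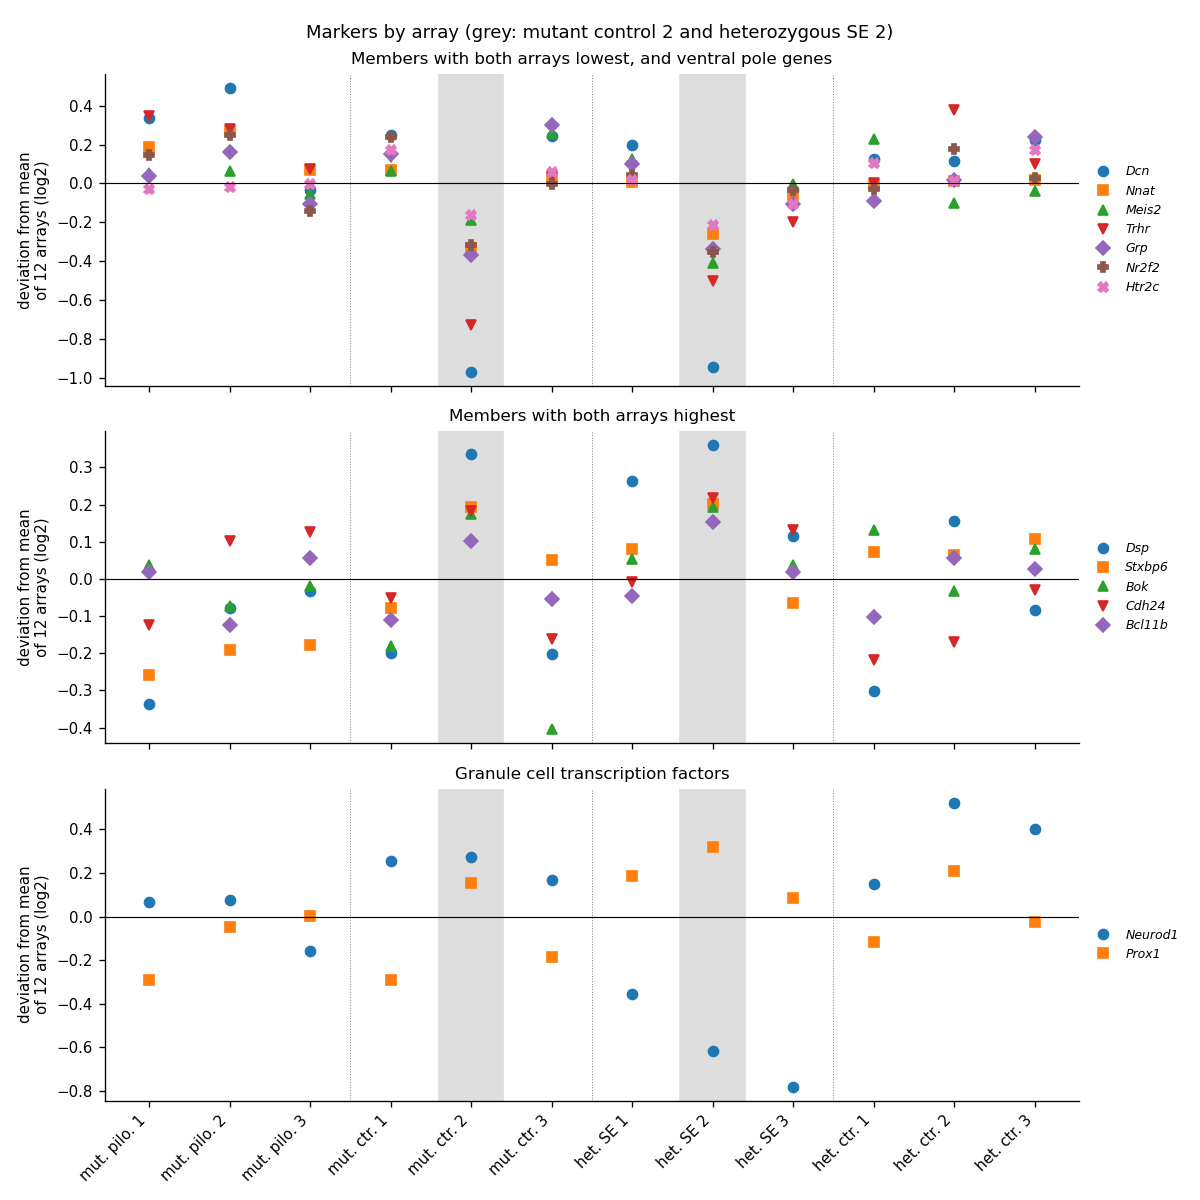
Deviation of single genes from their mean over the 12 arrays (log2), by array, with the 2 arrays low in Dcn in grey. Upper panel, members and ventral pole genes for which these arrays were the lowest; middle panel, members for which they were the highest; lower panel, Neurod1 and Prox1. Dcn is lowest on both grey arrays (10.85 and 10.88), where Neurod1 is above its mean on 1 and below it on the other.

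Field markers varied more between mice of a group than most genes. The SD within groups had a median of 0.143 over the 35 markers, against 0.0759 over all tested probe sets (log2, 8 residual degrees of freedom). It lay above the 90th percentile of all tested probe sets (0.134) for 20 of 35 markers, and for 21 of 35 above the 90th percentile of probe sets of like mean level. The largest SDs were those of Dcn at 0.483, Tdo2 at 0.376, Trpc6 at 0.305, Spink8 at 0.239, Lct at 0.237 and Dsp at 0.218. Neurod1 stood at 0.16, within the range of the others, and Neurod2, C1ql3, Foxp1 and Mpped1 stood below the median of all probe sets.

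**Figure D5:**
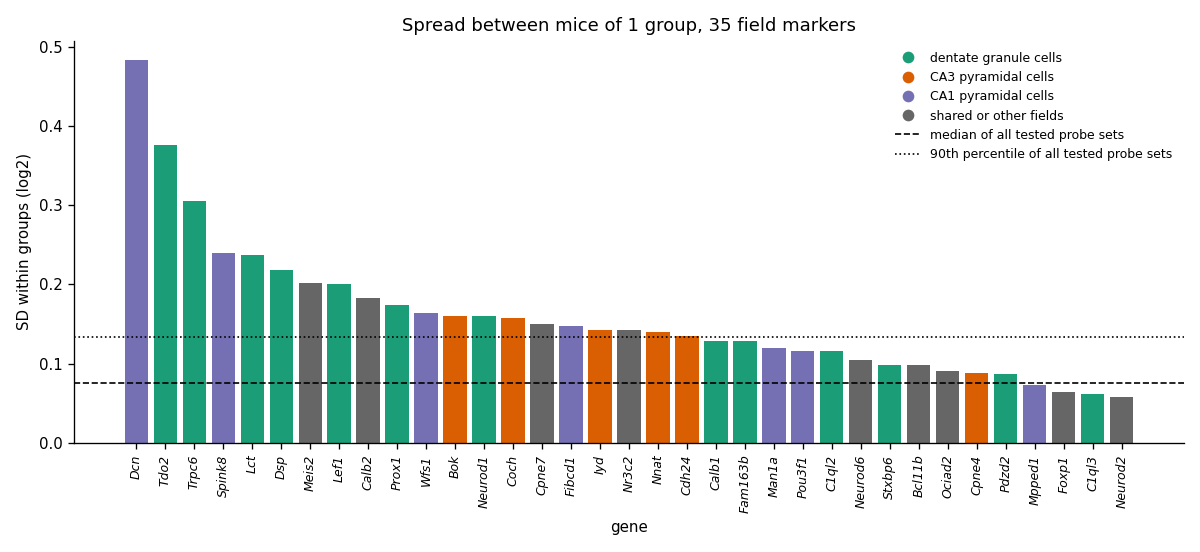
SD within groups (log2) of the 35 markers, in falling order and coloured by field. The dashed line is the median (0.0759) and the dotted line the 90th percentile (0.134) of all tested probe sets, and the bars of 20 markers end above the dotted line.

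Further genes of these fields, and of cells that a hippocampal sample can hold, were read from 20 lists with 107 measured genes. Of 7 further dentate granule genes, 2 were called higher in SE, beside 12% of all tested probe sets called in either direction. These were Glis3, a zinc finger factor, and Sema5b, a semaphorin. Glis3 was at 9.09, 9.17 and 8.99 in heterozygous mice with SE, against 8.60, 8.70 and 8.72 in heterozygous controls, a difference of 0.41 (adjusted p = 0.00451 from limma). Sema5b was at 8.92, 8.91 and 8.82 with SE, against 8.54, 8.55 and 8.55 in controls, a difference of 0.33 (adjusted p = 0.0046 from limma). None of the 7 was called lower, and the median of the 7 genes was -0.01. Glis3 and Sema5b were each called in 22 of 23 alternatives. The exception was the fit without both arrays high in thalamus genes, with adjusted p values of 0.0574 for Glis3 and 0.0538 for Sema5b from limma.

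The effect of pilocarpine on Glis3 differed between mutants and heterozygous mice, with a difference between both effects of -0.47 (adjusted p = 0.039 from limma). This passed in 8 of 23 alternatives. The mutants had no SE, so that genotype and seizure state cannot be told apart in this difference. Of the 34 field markers other than Neurod1, 0 had such a difference (limma), and 1 was higher and 1 lower at an unadjusted p under 0.05. Of the 23410 tested probe sets 3.59% were called and 3701 had an unadjusted p under 0.05. Genes of immature granule neurons, among them the doublecortin gene Dcx and Eomes, had 0 of 7 called in any comparison, with medians of -0.00 in SE and 0.01 in mutants given pilocarpine (limma). Sox11, a transcription factor of this list, had an unadjusted p under 0.05 in both, with differences of 0.38 in SE, where the arrays did not overlap (adjusted p = 0.0829 from limma), and 0.40 in mutants given pilocarpine (adjusted p = 0.15 from limma). Genes of CA2, mossy cells, the ventral pole and further CA3 genes likewise had 0 of 7, 0 of 3, 0 of 4 and 0 of 4 called in SE (limma), and 1 gene of the ventral pole had an unadjusted p under 0.05. All 4 further CA3 genes had a mean above that of mutant controls in mutants given pilocarpine, with a median of 0.16. Of these, 0 of 4 were called and 2 had an unadjusted p under 0.05 (limma), against 3470 of 23410 tested probe sets.

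Of 75 genes in the remaining lists, 11 were called in SE, or 14.7%, beside 12% of all tested probe sets. These lists are not all of other cells, since neurons of the fields also express pan-neuronal and dorsal pole genes. Higher were Nefl (0.27) of 7 pan-neuronal genes, Sst (0.31) and Reln (0.49) of 8 interneuron genes, Fezf2 (0.70) and Rorb (0.19) of 5 neocortex genes, and Slc2a1 (0.43) of 6 endothelial genes. Lower were Drd1 (-0.47) of 3 striatum genes, Ccdc153 (-0.35) of 3 ependymal genes, Cx3cr1 (-0.19) and P2ry12 (-0.23) of 6 microglia genes and Tek (-0.45) of the endothelial genes. The lists of dorsal pole, subiculum, thalamus, choroid plexus, meninges, oligodendrocytes and astrocytes had 0 called in SE (limma), with 1 gene of the meninges at an unadjusted p under 0.05. Without both arrays high in thalamus genes, the lists of striatum, microglia and endothelium had 0 called in SE and neocortex had 1. Pan-neuronal genes, interneurons and ependyma kept their counts of 1, 2 and 1. This fit has fewer arrays in both heterozygous groups, and calls over all tested probe sets fell from 2813 to 1874. At an unadjusted p under 0.05 (limma) it held 1 of 3 striatum, 2 of 6 microglia, 3 of 6 endothelial and 2 of 5 neocortex genes. Without both arrays low in Dcn, striatum had 0, microglia 1, endothelium 3 and choroid plexus 1. Over the alternatives, Rorb was called in SE in 8 of 23, with overlapping arrays, P2ry12 in 13 and Cx3cr1 in 16. In mutants given pilocarpine 1 gene of all lists was called, Sostdc1 of the choroid plexus (0.40), and this held in 11 of 22 alternatives. All 5 oligodendrocyte genes had a mean below that of mutant controls there, with a median of -0.28. Of these, 0 of 5 were called (limma) and 4 had an unadjusted p under 0.05, against 3470 of 23410 tested probe sets. The arrays did not overlap for 3 of 5, against 18.4% of tested probe sets. The mean of the 5 genes was -0.42, -0.06 and 0.04 with pilocarpine, against 0.13, 0.11 and 0.08 in mutant controls (log2, centred on the 12 arrays). Without both arrays low in Dcn all 5 still lay below, with a median of -0.26 and 1 at an unadjusted p under 0.05. The part of oligodendrocyte content in the values of the field markers was not tested. In mutant against heterozygous controls no gene of the 20 lists was called.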

How the data were processed

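RNA of hippocampal tissue, from 1 mouse per array, was hybridised to Affymetrix Mouse Gene ST arrays. How much of the hippocampus was taken is not stated. The authors deposited log2 RMA values from Affymetrix Expression Console, so that background correction, quantile normalization and probe summary had been done. Medians of the 12 arrays lay between 6.78 and 6.86. The number of arrays limits the precision, and no detection call was used. Tests covered the 23410 of 35556 probe sets that the platform annotation assigns to 1 gene (21789) or several (1621). Symbols were checked by Entrez identifier, with 21698 found and 0 changed.

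limma 3.58.1 in R 4.3.3 fitted a mean for each of 4 groups, with lmFit, eBayes and Benjamini-Hochberg adjustment over all 23410, and called at an adjusted p under 0.05. Neurod1 was left out of the calls in comparisons that hold its values in SE. Each array is 1 mouse. The methods describe controls as littermates, but the labels tie no array to a litter, so that litter entered no fit. Named are all 35 markers, with values per array for those called and for the 2 with the largest change per field and comparison. Values of other markers were printed after they had been seen, namely those free of overlap, Prox1, Neurod2, Bok and Wfs1. The members and lists were chosen with earlier results of these data known. The fit was tested on simulated data with known changes. Python 3.11.15 with pandas 2.3.3 read the tables. The alternatives were another prior variance, a filter on dim probe sets, other centring or normalization, array weights, fewer groups, other choices of probe sets, animal numbers as a block, and the omission of single arrays.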

Additional observations from a re-analysis of the deposited data

Results flagged for a closer look

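Of the genes named, 4 were singled out because the effect of pilocarpine differed between genotypes by a test of the difference itself (limma), with mutants minus heterozygous mice as its direction. Glis3, a further granule cell gene, differed by -0.06 in mutants given pilocarpine and by 0.41 in heterozygous mice with SE, each from its own controls, and the difference between both effects was -0.47 (adjusted p = 0.039 from limma), called in 8 of 23 alternatives. Fezf2 of the neocortex list differed by 0.13 in the mutants and by 0.70 in heterozygous mice, with -0.57 between them (adjusted p = 0.0128 from limma), called in 23 of 23 alternatives. Ccdc153 of the ependyma list differed by 0.07 in the mutants and by -0.35 in heterozygous mice, with 0.41 between them (adjusted p = 0.0133 from limma), called in 21 of 22 alternatives. Sostdc1 of the choroid plexus list differed by 0.40 in the mutants and by -0.11 in heterozygous mice, with 0.51 between them (adjusted p = 0.041 from limma), called in 8 of 22 alternatives. Mutants had no SE, so that genotype and seizure state cannot be told apart.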

How the results depend on the processing

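With SE, 0 of the 34 markers other than Neurod1 were called, and the count was 0 in 12 and 1 or 2 in 11 of 23 alternatives. It was 2 with a trended and robust prior variance, with probe sets above the median level only, with a second quantile normalization, with array weights and without both arrays low in Dcn, and 1 with arrays centred on their median and with the compared groups only. Leaving out 1 array gave 0 to 2 calls. The added calls were C1ql3, Neurod6 and Iyd: Neurod6 joined without mutant pilocarpine 3, mutant control 2 or mutant control 3, Iyd without mutant control 2 and C1ql3 without heterozygous control 2. In mutants given pilocarpine 0 of 35 were called in all 23 alternatives. For mutant against heterozygous controls the count was 0 in 23 alternatives, 6 when genotypes were averaged over both treatments, 2 when the arrays high in thalamus genes were also left out and 5 when those low in Dcn were.

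The difference between both pilocarpine effects was called for 0 of the 34 in all 23 alternatives. The untested values of Neurod1 lay between -1.16 and -0.85 in SE and between 0.61 and 0.92 for the difference between effects, with -1.16 and 0.92 without both arrays high in thalamus genes. For 30 changes of single markers, none of them called in the main fit, 710 values over the alternatives were compared. Of these values, 693 stayed uncalled, 17 became called and 0 called values reversed. No call could be lost, since the untested values of Neurod1 were left out. Changes of sign among uncalled values were not counted, such as Dcn between the controls of both genotypes, from -0.52 to 0.21.

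The 18 pairs of arrays of the same replicate number correlated at -0.31 to 0.32 in their deviations from group means, and 5 exceeded 0.1. Both pairs of arrays that stood apart share a number. Mutant control 2 and heterozygous SE 2 correlated at 0.32, and heterozygous SE 1 and heterozygous control 1 at 0.05. The labels do not say whether mice of the same number have anything else in common. With the animal number as a replicate block the counts of called markers were 0 in SE, 0 in mutants given pilocarpine, 0 by genotype in controls and 0 for the difference between effects, and over all probe sets 15 were called by genotype against 28 without it.

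Over all probe sets, leaving out 1 array gave 1989 to 2938 calls in SE, 162 to 448 in mutants given pilocarpine, 8 to 47 by genotype in controls and 535 to 986 for the difference between effects, against 2813, 430, 28 and 840. In mutants given pilocarpine the count was 688 above the median level, 161 with the compared groups only, 246 with all probe sets and 200 without the arrays low in Dcn. By genotype it was 9, 11 and 12 in the last 3 of these settings and 8 without the arrays high in thalamus genes, where SE gave 1874. Centring arrays on their median moved the calls in SE to 1422 higher and 1115 lower, against 1190 and 1623. The causes were not tested. Signal over background is not given, so that low expression could not be judged.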
